A study of Mus musculus with 6 samples.

Results

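The sites described here are places on RNA where PTBP2 was crosslinked in wild-type mouse cortex, where FLAG-tagged PTBP1 was crosslinked once it was expressed, and where the PTBP2 library from the FLAG-PTBP1 cortex listed nothing. They were found from lists of read intervals made by crosslinking, immunoprecipitation and sequencing (CLIP-seq). Within each library, distinct intervals (unique by chromosome, strand, start and end) were merged where they overlapped or touched on 1 strand, and a site of 5 or more distinct intervals was called stacked. A member is a stacked PTBP2 wild-type site that overlaps a stacked FLAG site of the Rosa-PTBP1; Emx1-cre cortex and has no PTBP2 interval of that genotype on it. The members were thus selected on the interval numbers of these 3 libraries, whose values at the members are given as a description. Only chromosomes 1 to 3 and 11 to 19 were used. Of 9652 stacked PTBP2 wild-type sites, 5785 lay on these 12 chromosomes, 3634 of them overlapped a stacked FLAG site, and 1690 of those were members. The other 1944, here called kept sites, had at least 1 PTBP2 interval in Rosa-PTBP1 cortex.

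PTBP1 and PTBP2 are paralogous RNA-binding proteins that prefer pyrimidine-rich RNA, often in introns beside regulated exons, where they commonly repress splicing. As neurons form, PTBP1 is switched off and PTBP2 takes over, and PTBP2 itself declines as neurons mature. Expressing PTBP1 in the developing cortex can place both proteins in the same nuclei, where they could meet the same RNA. Whether single cells held both, and how much PTBP2 they held, was not measured in these libraries.

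The cortices were taken at postnatal day 1 from BL6/129Sv mice. Wild-type cortex gave 1 PTBP2 library and 2 FLAG libraries, and since it holds no FLAG-PTBP1 the latter measure background. Rosa-PTBP1; Emx1-cre cortex, which expresses the tagged protein under Emx1-cre, gave 1 FLAG and 1 PTBP2 library. Rosa-PTBP1; PTBP2 loxp/loxp; Emx1-Cre cortex, in which the recombinase can also delete PTBP2, gave 1 FLAG library, called the loxP library below. Emx1-cre is active in the excitatory lineage of the dorsal forebrain, so other cells of the dissected cortex can keep PTBP2 and lack the transgene in both Rosa-PTBP1 genotypes. The wild-type groups lack both the transgene and the recombinase, and these cannot be told apart. Fewer cells of a type, less RNA per cell and less protein on each RNA cannot be told apart in these whole-tissue libraries.

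With 1 library per group apart from the wild-type FLAG pair, no difference between genotypes has a replicate check, and no p-value is given. The 95% intervals below are exact Clopper-Pearson intervals over sites and cover counting error only. On the 12 chromosomes the libraries held 93916 distinct intervals for PTBP2 in wild type, 61697 for PTBP2 in Rosa-PTBP1, 223107 for FLAG in Rosa-PTBP1, 154407 for the loxP library, and 51141 and 17129 for wild-type FLAG replicates 1 and 2. The lists hold significant clusters only, so a site with no listed interval may still have held reads. For this reason "without PTBP2" below means without a listed PTBP2 interval in Rosa-PTBP1 cortex. Positions are on mm9, and no gene model or genome sequence of that build was used here, so the sites are given by position and strand without gene, exon or intron.

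The 20 members ranked first by the smaller of their PTBP2 wild-type and FLAG Rosa-PTBP1 interval numbers show the pattern at its clearest. They held 25 to 44 PTBP2 wild-type intervals (median 30) and 25 to 104 FLAG Rosa-PTBP1 intervals (median 42), values that the ranking itself used. The loxP library, which the rule did not use, had intervals at 19 of the 20, with a median of 32.5 and a highest value of 110. It had an interval at 63.5% of all stacked PTBP2 wild-type sites, 82.9% of the FLAG-occupied ones and 89.0% of kept sites. Among kept sites with 21 to 50 PTBP2 wild-type intervals, 94.5% overlapped a stacked loxP site. The 19 of 20 is therefore not particular to these members. Wild-type FLAG replicate 1 listed intervals at 3 of them and replicate 2 at 2, where these libraries marked 11.3% and 3.87% of all stacked PTBP2 wild-type sites. Thus these sites were listed for PTBP2 in wild type and, with 1 exception, for FLAG-PTBP1 in both transgenic genotypes. In both background libraries 17 of the 20 were listed at 0. Only 13.8% of all stacked PTBP2 wild-type sites had an interval in either background library, so the 20 were not freer of background than other sites.

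First in rank was chr16:41614880-41615151 on the plus strand, with 44 PTBP2 wild-type intervals, 54 FLAG Rosa-PTBP1 intervals and 45 loxP intervals, and 0 in each wild-type FLAG library. The nearest PTBP2 Rosa-PTBP1 interval lay 13 bases beyond its edge. Its FLAG summit, the position within the site covered by most intervals, was 201 bases from the PTBP2 wild-type summit. The deepest points of the 2 proteins thus did not coincide within this 272-base site. At chr3:29148237-29148482 (plus strand) the summits were 0 bases apart. That site held 42 PTBP2 wild-type, 46 FLAG Rosa-PTBP1 and 25 loxP intervals, and the nearest PTBP2 Rosa-PTBP1 interval was 12 bases away. Both of these leading sites therefore had PTBP2 listed directly beside them in Rosa-PTBP1 cortex.

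On the minus strand of chromosome 14, a pair of sites carried FLAG-PTBP1 in both transgenic genotypes. The site chr14:124779084-124779366 held 36 PTBP2 wild-type, 63 FLAG Rosa-PTBP1 and 64 loxP intervals, with PTBP2 Rosa-PTBP1 116 bases away. The site chr14:124926527-124926700 held 38, 37 and 27 in the same order, with PTBP2 Rosa-PTBP1 406 bases away and all 3 summits at the same base. Neither had a wild-type FLAG interval.

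A few of the 20 were far from any PTBP2 Rosa-PTBP1 interval on their strand. The site chr11:102393456-102393624 (minus strand) held 42 PTBP2 wild-type, 35 FLAG Rosa-PTBP1 and 44 loxP intervals, and the nearest PTBP2 Rosa-PTBP1 interval lay 42477 bases away. At chr13:45937158-45937376 (minus strand), with 30, 31 and 20 intervals in the same order, that distance was 850342 bases. The chromosome 13 site belongs to a stretch in which the PTBP2 Rosa-PTBP1 list was empty, described further below, whereas the chromosome 11 site had a listed PTBP2 interval within 100 kb.

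The loxP library set 2 of the 20 apart from the rest. At chr2:24690721-24690872 (minus strand) it held 110 intervals, more than at any other member, against 53 in FLAG Rosa-PTBP1 and 29 for PTBP2 in wild type. At chr2:24522320-24522495 (minus strand), which held 28 PTBP2 wild-type and 27 FLAG Rosa-PTBP1 intervals, it held 0, and its nearest interval was 335 bases away. These sites of the same chromosome and strand thus stood at opposite ends of the loxP values. The largest FLAG Rosa-PTBP1 value among members was at chr2:6699205-6699371 (minus strand), with 104 intervals, 86 in the loxP library and 26 for PTBP2 in wild type.

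**Figure D1:**
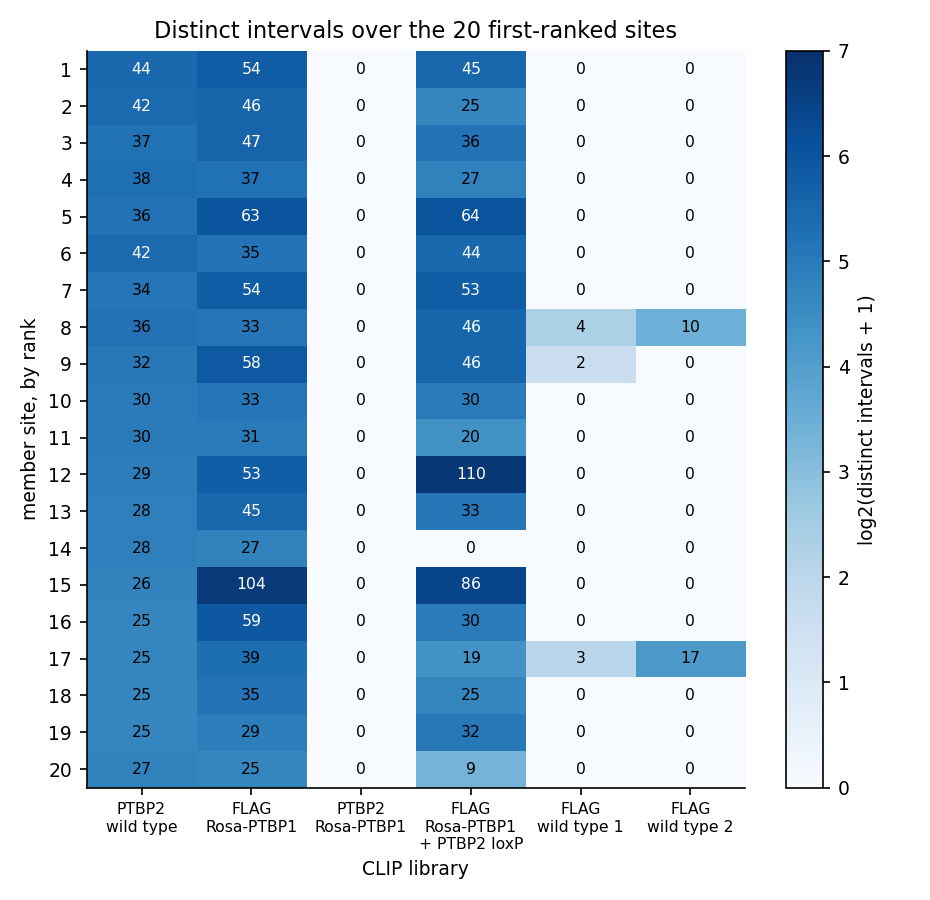
Distinct intervals over each of the 20 first-ranked sites (rows) in each of the 6 CLIP libraries (columns); the printed number is the count and the shade is log2 of the count plus 1. The PTBP2 Rosa-PTBP1 column is 0 by the rule, the loxP column is above 0 in 19 rows, and the wild-type FLAG columns are above 0 in 3 and 2 rows.

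Most members were far shallower than these. Over all 1690 the PTBP2 wild-type library held a median of 7 intervals (lowest 5, highest 71) and FLAG Rosa-PTBP1 a median of 11 (lowest 1, highest 104), where the lowest FLAG values come from sites that a stacked FLAG site overlaps only at its edge. Kept sites had medians of 12 and 18. Members were also narrower, with a median width of 69 bases (20 to 472) against 92 bases (32 to 1517). Only 49 members had 21 or more PTBP2 wild-type intervals. At the threshold, 448 members had exactly 5 PTBP2 wild-type intervals. Just outside it, 492 FLAG-occupied sites had 4, and 362 of those had no PTBP2 Rosa-PTBP1 interval. In 115 members the overlapping FLAG site had exactly 5 intervals. Outside that limit, 122 stacked PTBP2 sites overlapped a FLAG site of 4 intervals, 80 of them without PTBP2. Of the kept sites, 142 had a single PTBP2 Rosa-PTBP1 interval, 489 had 2 to 4 and 1313 had 5 or more.

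Where FLAG-PTBP1 sat within the members was not fixed by the rule beyond 1 base of overlap. Stacked FLAG Rosa-PTBP1 sites covered a median of 91.1% of a member (quartiles 72.2% and 100%), close to the 92.7% of kept sites. The FLAG Rosa-PTBP1 summit lay a median of 7 bases from the PTBP2 wild-type summit, and 77.7% of members had the summits within 20 bases, against 74.0% of kept sites. In the loxP library, the median offset was 8 bases over the 1282 members with an interval, and 76.7% were within 20 bases. All summits were sought only within the PTBP2 wild-type site, so a deeper FLAG position outside it could not be seen. The width of a site thus limits its offset, and more so in members, which are narrower than kept sites. Within these bounds the deepest positions lay close together in most members, and in most kept sites too.

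Averaged around the PTBP2 wild-type summit, FLAG Rosa-PTBP1 coverage in members was 7.51 intervals per site at the summit, against 1.82 at 100 bases upstream and 1.76 at 100 bases downstream. The loxP library had 4.98 at the summit and 1.4 and 1.34 at the same distances. PTBP2 wild type had 7.24 at the summit, and 0.809 and 0.754. The PTBP2 Rosa-PTBP1 library had 0 at the summit by the rule, and 0.269 and 0.215 at 100 bases. Kept sites had more coverage beside the summit in each of these 4 libraries. At 100 bases upstream they had 2.07 for PTBP2 wild type, 3.07 for FLAG Rosa-PTBP1, 2.64 for the loxP library and 1.44 for PTBP2 Rosa-PTBP1. The PTBP2 Rosa-PTBP1 values close to the members are also lowered by the rule. At the summit of kept sites, which each hold at least 1 interval of that library by definition, it had 6.30.

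**Figure D2:**
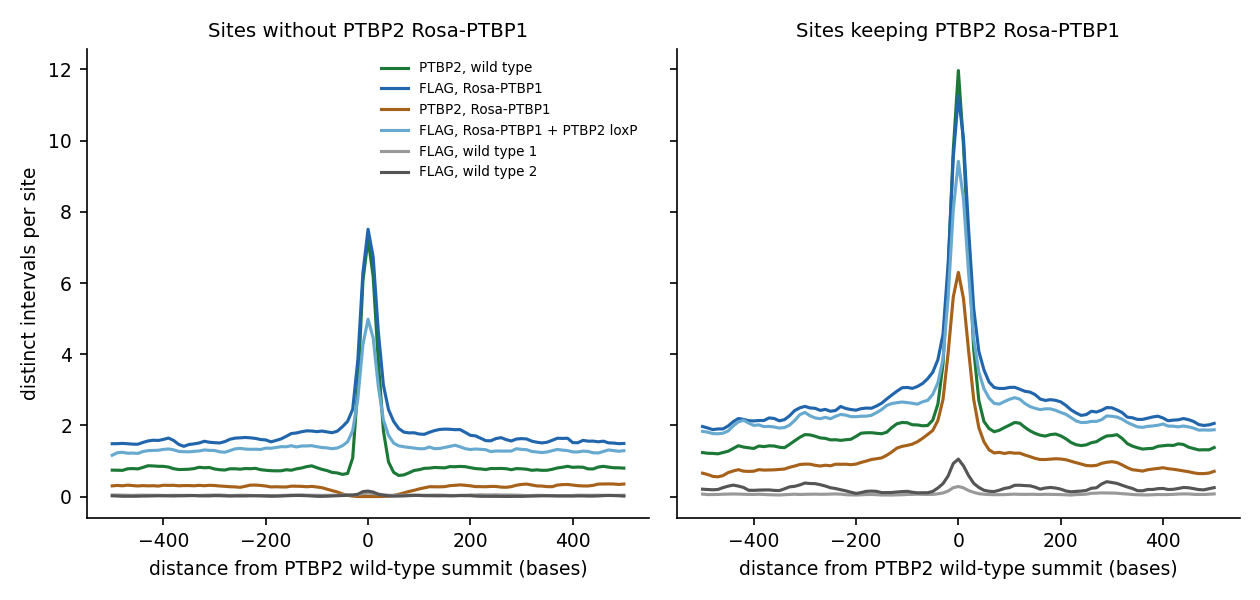
Mean number of distinct intervals per site (y axis) at each distance in bases, 5′ to 3′, from the PTBP2 wild-type summit (x axis), for the 1690 members (left) and the 1944 kept sites (right), with 1 line per library. FLAG Rosa-PTBP1 peaks at 7.51 and the loxP library at 4.98 in members. PTBP2 Rosa-PTBP1 peaks only in kept sites, at 6.30, a contrast that follows from the selection on that library.

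The absence of PTBP2 in Rosa-PTBP1 cortex, which defines the members, was also common at other PTBP2 sites. Across all stacked PTBP2 wild-type sites on the 12 chromosomes, 57.9% had no PTBP2 Rosa-PTBP1 interval, and 62.8% overlapped a stacked FLAG Rosa-PTBP1 site. Among FLAG-occupied sites the share without PTBP2 was 46.5% (44.9 to 48.1), and among the 2151 sites without a stacked FLAG site it was 77.1% (75.2 to 78.8). Both measures were used by the rule, so these shares are a description, and whether FLAG-PTBP1 altered PTBP2 at these sites was not tested. The order of the shares was the same under each of the 10 alternative settings run, where unoccupied sites lay 17.3 to 34.2 percentage points higher. Those settings reuse the same libraries and measures, so they are no independent check.

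Absence also followed the depth of the wild-type site. Among FLAG-occupied sites with 5 PTBP2 wild-type intervals, 71.0% (67.3 to 74.5) had no PTBP2 Rosa-PTBP1 interval. The share was 58.0% (54.1 to 61.8) at 7 or 8 intervals, 28.6% (25.2 to 32.1) at 12 to 20 and 10.7% (7.97 to 13.9) at 21 to 50. In the deepest class, of 51 or more, 1 of 136 sites lacked PTBP2. Sites without stacked FLAG-PTBP1 showed the same fall, from 85.6% (83.1 to 87.8) at 5 intervals to 42.9% (33.8 to 52.3) at 12 to 20, and were above the FLAG-occupied sites at each depth with sites of both kinds. The exact intervals of the unoccupied and FLAG-occupied shares overlapped at 9 to 11 PTBP2 wild-type intervals (51.4 to 65.6 against 46.1 to 54.4). They also overlapped at 21 to 50, where only 11 unoccupied sites were left. At the other depths with sites of both kinds they did not overlap. Since the rule used both FLAG occupancy and the absence of PTBP2, this contrast is a description and not a test.

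**Figure D3:**
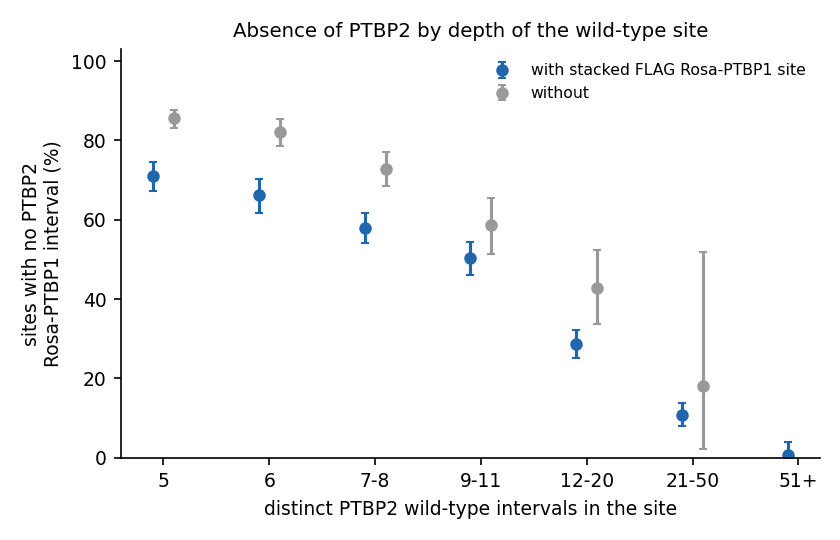
Share of stacked PTBP2 wild-type sites with no PTBP2 Rosa-PTBP1 interval (y axis, percent, with exact 95% intervals) by the number of distinct PTBP2 wild-type intervals in the site (x axis), for sites with and without a stacked FLAG Rosa-PTBP1 site. Both fall with depth, from 71.0% and 85.6% at 5 intervals to 28.6% and 42.9% at 12 to 20.

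The single member of the deepest class, chr13:46018350-46018821 (minus strand), was named after its values were seen. It held 71 PTBP2 wild-type intervals, from both of that library's sequencing runs (22 and 49), but only 6 FLAG Rosa-PTBP1 intervals and 0 in the loxP library and both wild-type FLAG libraries. Stacked FLAG-PTBP1 covered 17.4% of its 472 bases. Its nearest PTBP2 Rosa-PTBP1 interval was 768897 bases away. In all, 45 members lay over 100 kb from any PTBP2 Rosa-PTBP1 interval on their strand. The other 97.3% lay within 100 kb, beside 96.8% of sites with neither stacked FLAG-PTBP1 nor PTBP2, so such distance is not particular to members. Of the 45, 23 lay on chromosome 13 between positions 45765844 and 46043590. A stretch missing from the PTBP2 Rosa-PTBP1 list and a difference at each site cannot be told apart there.

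The 2 PTBP2 libraries each combined 2 sequencing runs, named XA041 and XB028 in the read names, in different proportions. In XA041 the wild-type library held 28347 distinct intervals on the 12 chromosomes and the Rosa-PTBP1 library 37830. In XB028 the numbers were 65569 and 23867. With sites built and PTBP2 sought within XA041 alone, 190 of 928 FLAG-occupied sites, or 20.5% (17.9 to 23.2), had no PTBP2 Rosa-PTBP1 interval. Within XB028 it was 1190 of 2709, or 43.9% (42.0 to 45.8). The share was thus lower in the run where the Rosa-PTBP1 library was the larger of the pair, and the part of run and depth in the 46.5% of the combined lists was not tested. Members and kept sites drew a similar part of their PTBP2 wild-type intervals from XA041 (28.4% and 28.5%). Wild-type intervals from both runs were found at 90.4% of members and at 95.5% of kept sites. They came from XB028 alone at 160 members and 87 kept sites, and from XA041 alone at 3 members and 0 kept sites.

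Turned around, the comparison gave fewer sites. On the 12 chromosomes the PTBP2 Rosa-PTBP1 library had 2509 stacked sites, of which 1717 overlapped a stacked FLAG Rosa-PTBP1 site. Of these, 218 had no PTBP2 wild-type interval, or 12.7% (11.2 to 14.4), where the wild-type library is the larger one.

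Many members had PTBP2 listed close by in Rosa-PTBP1 cortex. The distance to the nearest PTBP2 Rosa-PTBP1 interval on the same strand had a median of 380 bases (quartiles 114 and 1729). It was at most 50 bases in 226 members (13.4%), at most 200 bases in 604 (35.7%, 33.5 to 38.1) and at most 1000 bases in 1151 (68.1%). Among stacked PTBP2 sites without either FLAG-PTBP1 or PTBP2 Rosa-PTBP1 the share within 200 bases was 20.9%, and the median distance was 1158 bases. The members thus lay nearer to remaining PTBP2 intervals than the unoccupied sites did. When no PTBP2 Rosa-PTBP1 interval was allowed at less than 200 bases, so that members at exactly 200 stayed, 1088 of the 1690 members and 8 of the 20 first-ranked ones remained. The site chr18:16915053-16915219 (minus strand), with 25 PTBP2 wild-type, 59 FLAG Rosa-PTBP1 and 30 loxP intervals, was only 3 bases from the nearest PTBP2 Rosa-PTBP1 interval.

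**Figure D4:**
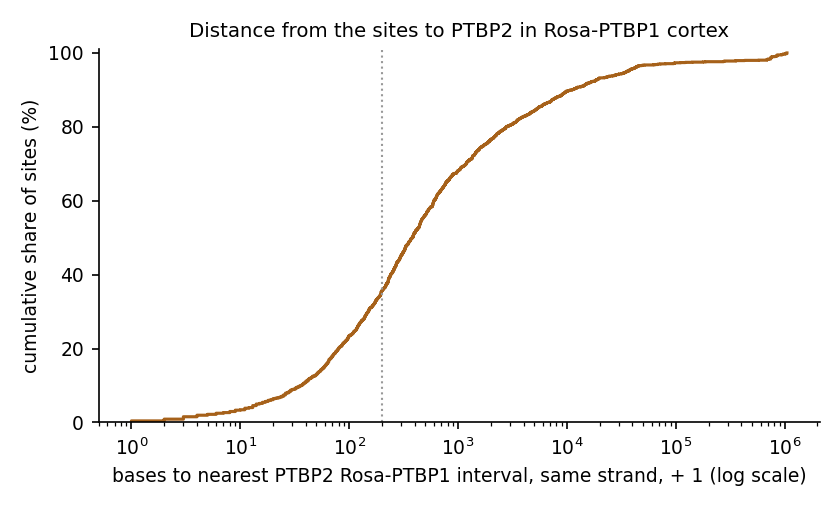
Cumulative share of the 1690 members (y axis, percent) by distance in bases to the nearest PTBP2 Rosa-PTBP1 interval on the same strand, plus 1, on a log scale (x axis); the dotted line marks 200 bases. The curve reaches 35.7% at 200 bases and 68.1% at 1000 bases.

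The loxP library, a FLAG library from cortex in which PTBP2 can be deleted, was not used by the rule but shares its antibody and sequencing run with FLAG Rosa-PTBP1. It had intervals at most members. A stacked loxP site overlapped 1104 of 1690 members, or 65.3% (63.0 to 67.6), where 54.5% of all stacked PTBP2 wild-type sites and 74.8% of the FLAG-occupied ones overlapped one. The members' share lay above the first background and below the second. Kept sites stood at 83.0% (81.2 to 84.6). When kept sites were weighted to the members' numbers of PTBP2 wild-type and FLAG Rosa-PTBP1 intervals, a weighting added after the data were seen, their share was 72.3%. Sites without stacked FLAG Rosa-PTBP1 that also lacked PTBP2 overlapped a stacked loxP site in 17.5% (15.7 to 19.4). The members' share thus lay between that of these sites and that of kept sites. The part of the shared run and antibody in it was not tested.

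By depth, the members' share with a stacked loxP site rose from 54.5% (49.7 to 59.1) at 5 PTBP2 wild-type intervals to 84.3% (78.5 to 89.1) at 12 to 20 and 89.6% (77.3 to 96.5) at 21 to 50. Kept sites gave 67.8% (60.5 to 74.5), 85.1% (81.6 to 88.1) and 94.5% (91.8 to 96.5) at the same depths. Members were lower at each depth from 5 to 50, but the intervals of members and kept sites failed to overlap only at 5. Across the 1690 members, loxP and FLAG Rosa-PTBP1 interval numbers had a Spearman correlation of 0.55, given as a description, since the libraries share that run and antibody and sites of 1 transcript share its abundance.

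**Figure D5:**
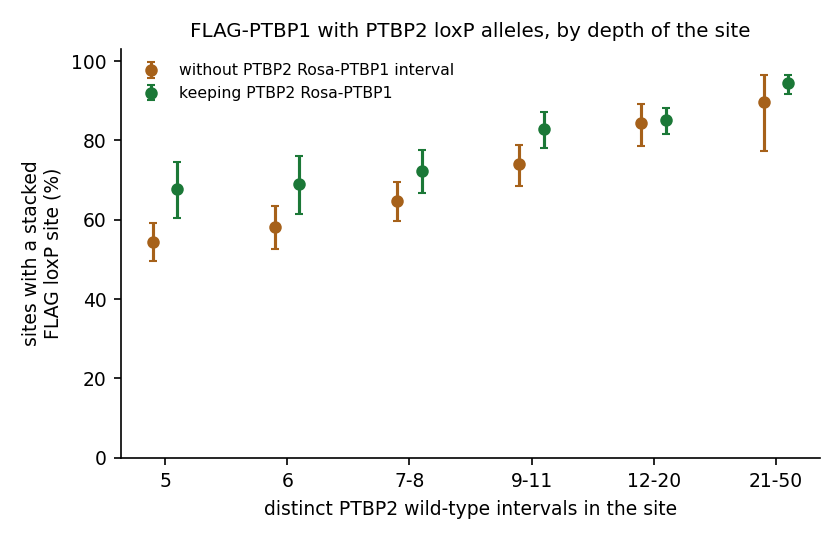
Share of members and of kept sites that overlap a stacked FLAG site of the loxP library (y axis, percent, with exact 95% intervals) by the number of distinct PTBP2 wild-type intervals in the site (x axis). Members stand at 54.5% and kept sites at 67.8% at 5 intervals, and at 84.3% and 85.1% at 12 to 20.

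In the loxP library 408 members had no interval. Of these, 182 had one within 200 bases, and the median distance was 256 bases. Of the 408, 10 had 20 or more FLAG Rosa-PTBP1 intervals. The first of them, chr2:6774866-6774937 (minus strand), held 33 FLAG Rosa-PTBP1 and 8 PTBP2 wild-type intervals, with a loxP interval 31 bases away. Next came chr14:124873853-124873971 (minus strand), with 30 and 14, which a loxP interval touched without overlapping. Conversely, 337 of the 1690 members held more intervals in the loxP library than in FLAG Rosa-PTBP1, where the loxP library was the smaller. The same count was not made for kept sites, so it does not set the members apart. The site chr2:4142466-4142585 (plus strand) was among the 5 members richest in loxP intervals, with 57, beside 55 in FLAG Rosa-PTBP1 and only 10 for PTBP2 in wild type. Members close to remaining PTBP2 carried a stacked loxP site in 73.9% (67.7 to 79.5) of cases at distances up to 50 bases, against 57.1% (51.9 to 62.3) at 1001 to 10000 bases. FLAG Rosa-PTBP1 medians moved with this, from 13 intervals to 9.

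Background from the FLAG antibody touched a minority of the members. An interval of either wild-type FLAG library lay on 250 members, or 14.8% (13.1 to 16.6), beside 13.8% of all stacked PTBP2 wild-type sites and 18.6% (16.9 to 20.4) of kept sites. The members' share was thus near that of all stacked sites. Replicate 1 marked 196 members (11.6%, against 11.3% of all stacked sites) and replicate 2 marked 70 (4.14%, against 3.87%), with 16 members counted in both numbers. The replicates therefore marked mostly different members. This was not particular to members, since over all 5785 stacked sites they marked 656 and 224, with 81 (1.4%) marked by both. A stacked loxP site together with no wild-type FLAG interval was seen at 929 members, or 55.0% (52.6 to 57.4). That share was not computed for other stacked sites, so it does not set the members apart.

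The member with most wild-type FLAG intervals was chr2:6804962-6805074 (minus strand), with 3 in replicate 1 and 17 in replicate 2, beside 39 in FLAG Rosa-PTBP1, 19 in the loxP library and 25 for PTBP2 in wild type. At chr14:125076232-125076330 (minus strand) replicate 2 held 15 intervals and replicate 1 held 0, beside 17 in FLAG Rosa-PTBP1. There the count of 1 background library was nearly as high as that of FLAG-PTBP1, although replicate 2 was the smallest library. At chr12:110803523-110803711 (plus strand), eighth in rank, the replicates held 4 and 10 intervals, FLAG Rosa-PTBP1 33, the loxP library 46 and PTBP2 wild type 36. FLAG Rosa-PTBP1 and replicate 2 came from the same sequencing run, and the part of shared background in these counts was not tested.

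Members were unevenly spread. They fell into 529 windows of 100 kb, 273 of which held a single member, while the 95 windows with 5 or more held 982 members (58.1%). Of all members, 1357 (80.3%) shared their 100-kb window with a kept site. Neither this share nor the 58.1% was computed for other stacked sites, so they do not set the members apart. Chromosome 2 between 6.7 and 6.8 Mb was the richest window, where 41 members and 77 kept sites were found, all members on the minus strand, with 25 of the 41 overlapping a stacked loxP site and 17 a wild-type FLAG interval. Next was chromosome 16 from 6.8 to 6.9 Mb on the plus strand, with 26 members and 25 kept sites, 19 of the members with a stacked loxP site and 4 with a wild-type FLAG interval. On chromosome 14 from 40.1 to 40.2 Mb (minus strand) there were 25 members and 28 kept sites. Chromosome 3 from 25.7 to 25.8 Mb (minus strand) and chromosome 17 from 91.3 to 91.4 Mb (minus strand) each held 23 members, beside 17 and 20 kept sites. In these last windows, as on chromosome 16, members outnumbered kept sites, the reverse of the chromosome 2 window, where the PTBP2 wild-type library held 3477 distinct intervals against 784 on chromosome 16, 722 on chromosome 3 and 815 on chromosome 17.

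By chromosome, the share of FLAG-occupied sites that were members ran from 40.6% on chromosome 19 (28 of 69) to 53.1% on chromosome 17 (135 of 254). The share of members with a stacked loxP site ran from 56.9% on chromosome 11 to 72.1% on chromosome 14. Members lay on the plus strand in 40.2% (37.8 to 42.6) of cases, as did 42.1% (39.9 to 44.4) of kept sites. None of the 1690 members, and none of the 5785 stacked PTBP2 wild-type sites, was overlapped by an interval of the opposite strand in any of the 6 libraries. Whether the cluster calling restricted the strand is not stated in the sources used, so this is given as a property of the lists.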

How the data were processed

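CLIP-seq of FLAG-PTBP1 and PTBP2 was analysed in 6 libraries of 5 groups. Per the labels' protocols, tissue was irradiated at 400 mJ/cm2 and complexes of 80 to 110 kDa were taken. Reads were aligned with Bowtie to mm9, per the submitters' processing notes. Each deposited list gives the positions of reads in clusters marked significant by a false discovery rate, as its name and header state. Which caller and level were applied, and the version of Bowtie, is not given in the sources used. They hold no counts or scores.

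Here repeated lines were collapsed, intervals merged into sites and overlaps of at least 1 base counted on the same strand (Python 3.11.15, NumPy 2.4.6, pandas 2.3.3, SciPy 1.17.1); the code was tested on simulated data with planted sites. Members and lists were chosen with earlier results of these data known. Named sites were the 20 members with the largest smaller count of PTBP2 wild type and FLAG Rosa-PTBP1, the 5 with most loxP intervals (over all members and over those with none in wild-type FLAG), the 5 with most wild-type FLAG intervals, and the 5 windows with most members. Others named were chosen after their values were seen. Alternatives changed the stacking, merging, absence, overlap, chromosomes and runs. Planned gene lists and motifs were not analysed here.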

Additional observations from a re-analysis of the deposited data

How the results depend on the processing

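The number of members (1690) and the 46.5% of FLAG-occupied sites without PTBP2 depended on the settings. With stacks of 3 or more intervals there were 2602 members, 53.5% without PTBP2 and 13.1% of members on a wild-type FLAG interval. With 10 or more there were 330, 23.4% and 17.3%, with medians of 13 PTBP2 wild-type and 18 FLAG Rosa-PTBP1 intervals. With no PTBP2 Rosa-PTBP1 interval allowed at less than 200 bases there were 1088 members, 29.9% without PTBP2, 61.9% of members with a stacked loxP site and 94% in windows where PTBP2 Rosa-PTBP1 was listed (96.2% otherwise). Keeping repeated lines gave 49.7% without PTBP2. All chromosomes, including those nearly empty in PTBP2 Rosa-PTBP1, gave 3572 members, 63.2% without PTBP2, 71% with a stacked loxP site, 12.9% on a wild-type FLAG interval and 51.9% in listed windows. Within run XA041 there were 190 members, 20.5% without PTBP2, 78.4% with a stacked loxP site and a FLAG Rosa-PTBP1 median of 17. Within XB028 the shares were 43.9% without PTBP2, 70.8% with a stacked loxP site and 94.5% in listed windows. Without wild-type FLAG replicate 1 or replicate 2 the share of members on background ranged from 4.14% to 11.6%. The loxP share was 58.6% where 50% of the member had to be covered and 75.9% for any interval. For kept sites, weighting gave 72.3% against 83.0%. Except where the setting itself removes sites or libraries, the cause was not tested. The other 44 values stayed within the counting interval or within 1.5 times. No paired analysis was possible because the groups compared share fewer than 2 replicate numbers and no result comes from a test between samples. Depth limits all absences, since sites below the unstated cluster threshold are not listed.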
